A study of Mus musculus with 9 samples.

Results

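The interleukin 1 (IL-1) family and its receptors were followed through 10 genes, picked by symbol with earlier results of these data known, of the 55359 genes in a mouse lung RNA-seq table. The ligands were Il1a, Il1b, Il33 and Il18. The natural inhibitors were Il1rn, Il18bp and the decoy receptor Il1r2, and the signalling receptors were Il1r1, its partner chain Il1rap, and Il1rl1. All 10 passed the filter on low values, which asked for 3 or more libraries at an FPKM of 1 or higher, as did 15459 genes in all. FPKM, a count divided by the gene's exonic length and the library's total, sets a level per gene length, so that genes can be ranked within a library.

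The lungs came from male C57BL/6J mice aged 6 to 8 weeks, taken 28 days after an instillation into the trachea. Control mice received saline. Silica mice received saline with 5 mg of silica, the crystalline dust behind the scarring lung disease silicosis. Silica + ATL-III mice received the same dust and also 30 mg/kg per day of atractylenolide III (ATL-III), a plant sesquiterpene lactone, by injection into the abdomen. No group received ATL-III without silica, the labels name no abdominal injection for Control or Silica mice, and the duration of dosing is not given, so an effect of the compound in lungs without dust, or of the injections, cannot be told apart from what is described here. Groups held 20 mice each and gave 3 libraries each. The labels do not say that a library is 1 mouse, and p-values therefore describe the spread among the libraries, part of which may be technical.

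IL-1 alpha and IL-1 beta bind the receptor IL1R1, which recruits IL1RAP and signals through MYD88, IRAK kinases and NF-kB. The antagonist IL1RN occupies IL1R1 without signalling, and IL1R2 binds ligand but lacks the signalling domain. IL-33 acts on IL1RL1 (ST2), which also pairs with IL1RAP, and IL-18 acts on its own receptor pair and is held in check by IL18BP. In the lung, IL-1 alpha and IL-33 are alarm signals stored in cells and released on damage, while IL-1 beta and IL-18 are made as precursors that caspase-1 cleaves, a step that inhaled silica crystals are known to trigger in macrophages. Transcript levels say nothing of cleavage, release or binding.

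Libraries held 16047175 to 17792481 counts. Surfactant gene Sftpc, a lung epithelial marker, stood between 19802 and 30186 FPKM in every library. The 19 neutrophil markers summed to 629 to 4000 FPKM in Control, 1160 to 4910 in Silica and 30500 to 45900 in Silica + ATL-III, and within Control the 4000 came from replicate 2, with 658 and 629 in the others. The 18 macrophage markers summed to 7870 to 9990 FPKM in Control, 15500 to 17700 in Silica and 10600 to 14000 in Silica + ATL-III. No marker of either list was at 0 in all libraries. In whole lung, a change in the number of cells of a type and a change in RNA per cell cannot be told apart.

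Mean FPKM, a level per gene length, was ranked within each group. In Control, Il33 was highest at 50.0 ± 12.6 FPKM (mean ± SD, n = 3) and Il1rl1, the gene of its receptor, lowest at 1.06 ± 0.234. Between neighbours in the Control order, the libraries' values were separate only from Il18 (19.7 ± 1.64) to Il1r1 (9.64 ± 0.439) and from Il1a (1.92 ± 0.507) to Il1rl1. In Silica, Il33, Il1b, Il18 and Il1rn led, each overlapping its neighbour, and the values were separate from Il1rn (19.4 ± 6.36) to Il1r1 (8.79 ± 0.690). In Silica + ATL-III the decoy receptor Il1r2 was the highest of the 10 (245 ± 79.8), followed by Il1b (106 ± 10.4), Il33 (42.3 ± 7.98) and Il18 (21.3 ± 1.60), with separate values at each of these steps. Il1rl1 was lowest in every group.

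**Figure D1:**
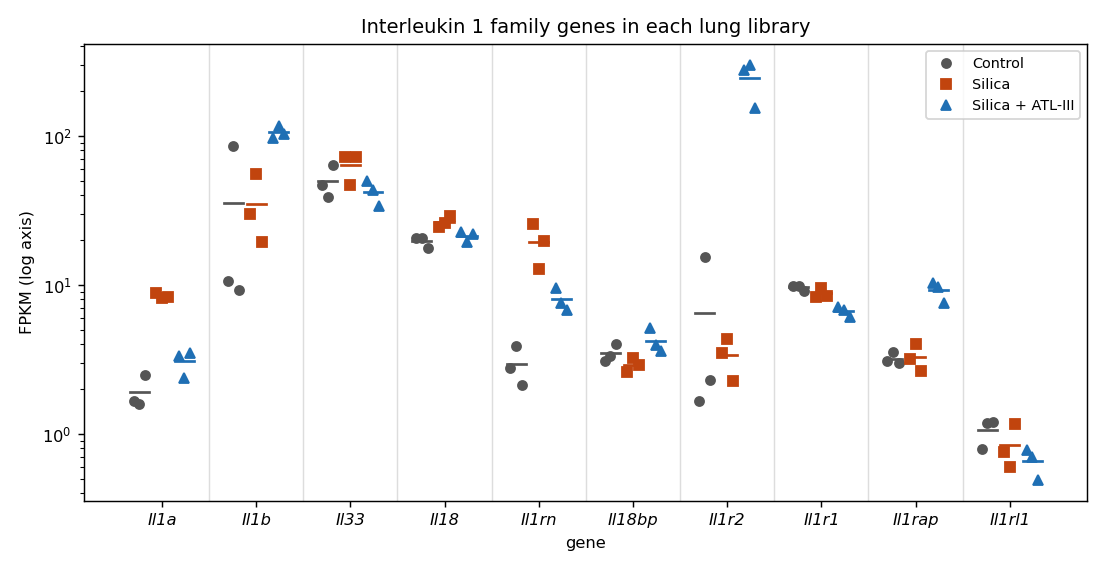
FPKM (log axis) of the 10 genes in each of the 9 libraries, with points for libraries and horizontal bars for group means (n = 3). Il1r2 lies between 1.66 and 15.35 in Control and Silica and between 153.5 and 301.2 in Silica + ATL-III, while Il1a and Il1rn are highest in Silica.

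The comparison of Silica with Control asks which family genes differed 28 days after the dust. The ligand genes Il1a and Il18 and the antagonist gene Il1rn were higher in Silica, and no member was called lower. Called here means an adjusted p under 0.05 in edgeR's quasi-likelihood test, with the Benjamini-Hochberg method applied over all genes tested. The 3 calls of 10 compare with 9.11% of all tested genes called higher, and the 0 with 7.81% called lower (16.9% in either direction). The median log2 fold change of the 10 was 0.11, beside -0.01 over all tested genes.

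Il1a, the gene of the stored alarm cytokine IL-1 alpha, read 1.67, 1.58 and 2.50 FPKM in Control and 8.85, 8.20 and 8.26 in Silica. Every Silica library was above every Control library, and the log2 fold change was 2.24 ± 0.21 (SE; edgeR adjusted p = 0.000147), 4.72-fold. Il1rn, which encodes the receptor antagonist, read 2.77, 3.90 and 2.13 FPKM in Control and 25.54, 12.85 and 19.85 in Silica. Its groups were also separate, with a log2 fold change of 2.84 ± 0.28 (edgeR adjusted p = 0.000149), 7.15-fold. Il18 moved less, from 20.67, 20.55 and 17.78 FPKM to 24.64, 25.90 and 29.06. Its groups did not overlap (log2 fold change 0.53 ± 0.12, edgeR adjusted p = 0.014), but the call was lost without Control replicate 3 (adjusted p = 0.0678) or without Silica replicate 3 (0.0512). These 3 members had no overlap between groups in the higher direction, as had 14.4% of all tested genes. In the lower direction 0 members had none, beside 28.9% of all tested genes. Of the 18 macrophage markers, 14 were called higher in Silica and 1 lower, beside 9.11% and 7.81% of all tested genes. The part of macrophages in the rise of Il1a, Il1rn and Il18 was not tested.

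Il1b, the gene of the inflammasome-processed ligand IL-1 beta, was the most scattered member in Control. It read 10.70, 86.14 and 9.29 FPKM in Control and 29.89, 55.92 and 19.57 in Silica. Control replicate 2 was above all Silica libraries and the other Control libraries were below them, so the log2 fold change was 0.09 ± 0.67 (edgeR adjusted p = 0.94). Without that library, which also had the highest neutrophil marker sum in Control, the difference was 1.9 (adjusted p = 0.0101). Il1r2 showed the same library apart, at 1.66, 15.35 and 2.30 FPKM in Control against 3.52, 4.33 and 2.27 in Silica. Its log2 fold change of -0.83 ± 0.66 (edgeR adjusted p = 0.40) turned to 0.86 without Control replicate 2 (adjusted p = 0.145).

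Il33 read 46.86, 39.21 and 63.81 FPKM in Control and 72.52, 46.88 and 72.13 in Silica, with overlapping groups. Its log2 fold change was 0.46 ± 0.22 (edgeR adjusted p = 0.156), and without Silica replicate 2 it was 0.65 (adjusted p = 0.0344). Il18bp, the gene of the soluble IL-18 inhibitor, was 3.48 ± 0.466 FPKM in Control and 2.91 ± 0.300 in Silica. The receptor genes Il1r1 (9.64 ± 0.439 and 8.79 ± 0.690), Il1rap (3.21 ± 0.285 and 3.28 ± 0.689) and Il1rl1 (1.06 ± 0.234 and 0.843 ± 0.294) had log2 fold changes of -0.03 ± 0.10, 0.13 ± 0.15 and -0.23 ± 0.28. None of these 4 passed the test, with edgeR adjusted p between 0.544 and 0.827.

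The sequences just before the transcription starts of the genes that were called highest here, Il1a and Il1rn, are shown beside those of Il1b, the neighbour of Il1a that was not called, and of Il1r2. RefSeq promoters (GRCm38.p6) were found for all 10 members, 15 starts in all, and the 250 bases upstream of each were searched on both strands for motif letters of factors known from IL-1 genes. Capitals mark matches to a loose NF-kB motif (GGG, any 2 bases, then TTTCC), to TGACTCA (AP-1) and to TTNCNNAA (C/EBP). For Il1rn, 2 of its 3 starts are shown, and the middle one, whose window largely overlaps the downstream one, is not. Each is written 5′ to 3′ along the gene and ends at the base before the start.
Il1a, chr2:129309973-129310222, minus strand: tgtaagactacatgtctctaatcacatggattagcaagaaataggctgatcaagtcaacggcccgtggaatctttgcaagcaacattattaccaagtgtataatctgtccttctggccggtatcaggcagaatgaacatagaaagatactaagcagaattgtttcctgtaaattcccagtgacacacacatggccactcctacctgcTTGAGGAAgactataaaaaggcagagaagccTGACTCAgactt
Il1rn, upstream start, chr2:24336610-24336859, plus strand: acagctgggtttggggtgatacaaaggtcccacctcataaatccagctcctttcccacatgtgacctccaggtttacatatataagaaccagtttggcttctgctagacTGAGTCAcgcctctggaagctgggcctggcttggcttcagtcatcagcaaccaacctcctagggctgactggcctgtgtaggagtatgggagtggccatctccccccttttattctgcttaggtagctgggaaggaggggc
Il1rn, downstream start, chr2:24345121-24345370, plus strand: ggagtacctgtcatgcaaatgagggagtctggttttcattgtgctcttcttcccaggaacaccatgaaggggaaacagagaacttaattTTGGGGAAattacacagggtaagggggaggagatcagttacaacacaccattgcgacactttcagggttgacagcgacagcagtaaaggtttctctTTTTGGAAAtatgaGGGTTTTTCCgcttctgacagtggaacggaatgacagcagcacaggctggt
Il1b, chr2:129371140-129371389, minus strand: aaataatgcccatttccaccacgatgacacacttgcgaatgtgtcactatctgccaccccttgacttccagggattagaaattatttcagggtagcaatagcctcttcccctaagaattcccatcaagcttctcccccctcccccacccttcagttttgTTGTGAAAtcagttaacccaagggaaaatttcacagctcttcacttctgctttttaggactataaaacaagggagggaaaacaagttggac
Il1r2, chr1:40085843-40086092, plus strand: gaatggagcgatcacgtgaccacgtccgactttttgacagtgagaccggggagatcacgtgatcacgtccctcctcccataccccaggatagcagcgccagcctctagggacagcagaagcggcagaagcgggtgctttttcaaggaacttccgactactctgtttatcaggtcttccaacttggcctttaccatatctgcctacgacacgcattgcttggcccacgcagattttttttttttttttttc

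TGACTCA was matched before Il1a, at position -12 from the start, and on the opposite strand before the upstream Il1rn start, at -141. These were the only 2 of the 15 member promoters with it, and 4.46% of all 32851 promoters in the table held it. The loose NF-kB motif was matched in 1 member promoter, that of the downstream Il1rn start at -51, beside 1.41% of all promoters. Its strict form, with A and C as the free bases, was matched in 0 member promoters and 0.14% of all. The loose TTNCNNAA, whose first letters can coincide with the end of the NF-kB motif, was matched in 11 of the 15, in 7 members, beside 36.8% of all promoters. GAGGAA (PU.1), not capitalised, was matched only before Il1a among members, within the TTNCNNAA match, and in 23.3% of all promoters. The Il1r2 window held none of these 5 letter patterns. It precedes a RefSeq start that lies inside the Il1r2 gene of the GENCODE M21 annotation (chr1:40074079-40125231). The bases before the GENCODE start were not searched. A match describes letters only.

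The comparison of Silica + ATL-III with Silica asks what differed when the compound was given on top of the dust. Il1r2 and the receptor partner gene Il1rap were higher with ATL-III, as was Il18bp, while Il1a, Il1rn and the signalling receptor gene Il1r1 were lower. The 3 higher and 3 lower of 10 stand beside 11.2% and 10% of all tested genes (21.2% in either direction). The median log2 fold change of the 10 was -0.32, beside 0.00 over all tested genes.

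Il1r2, the decoy receptor, read 3.52, 4.33 and 2.27 FPKM in Silica and 279.5, 301.2 and 153.5 in Silica + ATL-III. Even the lowest library with ATL-III stood far above the highest without it, Control replicate 2 at 15.35. The log2 fold change was 6.20 ± 0.72 (edgeR adjusted p = 0.000262), 73.5-fold, on 333 counts in all Silica libraries and 23146 in all Silica + ATL-III libraries. Il1rap, which completes the receptors for IL-1 and IL-33, read 3.19, 4.01 and 2.64 FPKM in Silica and 10.38, 9.71 and 7.61 with ATL-III. The groups were separate, at 1.51 ± 0.15 on the log2 scale (edgeR adjusted p = 0.000132), 2.86-fold. Il1r1, the signalling receptor that IL1R2 competes with for ligand, read 8.33, 9.58 and 8.45 FPKM in Silica and 7.07, 6.82 and 6.06 with ATL-III. This smaller fall of 1.30-fold passed the test (log2 fold change -0.38 ± 0.10, edgeR adjusted p = 0.0165), but not in a fit of these 6 libraries alone (0.0546). Il1rl1 was 0.843 ± 0.294 FPKM in Silica and 0.657 ± 0.150 with ATL-III, with overlapping groups (-0.33 ± 0.28, edgeR adjusted p = 0.429). Markers of fibroblasts, stromal cells that carry IL1R1, had 6 of 11 called lower and 1 higher in this comparison, beside 10% and 11.2% of all tested genes. Their sums were 1200 to 1420 FPKM in Silica and 819 to 1340 with ATL-III. Endothelial markers went the other way, with 5 of 11 called higher and 0 lower. Their sums were 276 to 367 FPKM in Silica and 376 to 481 with ATL-III. The part of fibroblasts, endothelial cells or other cells in the fall of Il1r1 was not tested.

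Il1a, which was higher in Silica than in Control, was lower with ATL-III than in Silica. It read 3.36, 2.36 and 3.47 FPKM in Silica + ATL-III, below all Silica libraries, a log2 fold change of -1.44 ± 0.20 (edgeR adjusted p = 0.000767). Il1rn went the same way, at 9.61, 7.55 and 6.83 FPKM, again below all Silica libraries (-1.27 ± 0.26, edgeR adjusted p = 0.00552). Since both comparisons use the Silica libraries, opposite signs in them are not independent of each other. The macrophage marker list had 6 of 18 lower and 1 higher in this comparison, beside 10% and 11.2% of all tested genes. The part of macrophages in the lower Il1a and Il1rn was not tested. Il18 read 22.51, 19.46 and 21.85 FPKM with ATL-III, below all Silica libraries, yet did not pass the test (-0.30 ± 0.12, edgeR adjusted p = 0.0899). Il18bp, its soluble inhibitor, read 2.62, 3.22 and 2.90 FPKM in Silica and 5.15, 3.93 and 3.60 with ATL-III. The groups were separate and the log2 fold change was 0.56 ± 0.17 (edgeR adjusted p = 0.0359), a call that was lost in 10 of 19 alternatives, with adjusted p up to 0.135.

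Il1b read 96.68, 117.2 and 103.9 FPKM with ATL-III, above every Silica and every Control library. The scatter of the other groups left it outside the threshold (log2 fold change 1.62 ± 0.68, edgeR adjusted p = 0.109). Without Control replicate 2 the adjusted p was 0.0031, and in a fit of these 6 libraries alone 0.00527. Il33 read 49.57, 43.52 and 33.75 FPKM with ATL-III. Silica replicate 2, at 46.88, fell among these values, and the log2 fold change was -0.58 ± 0.22 (edgeR adjusted p = 0.0771), or -0.78 without that library (adjusted p = 0.0165). Alveolar type 2 cells are a known source of Il33 in mouse lung. With ATL-III, 4 of their 9 markers were called lower and 0 higher, beside 10% and 11.2% of all tested genes. In Silica against Control, 5 were called higher and 0 lower, beside 9.11% and 7.81%. The part of these cells in the values of Il33 was not tested. Groups did not overlap for 4 members in the higher and 4 in the lower direction, beside 15.5% and 19.6% of all tested genes.

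**Figure D2:**
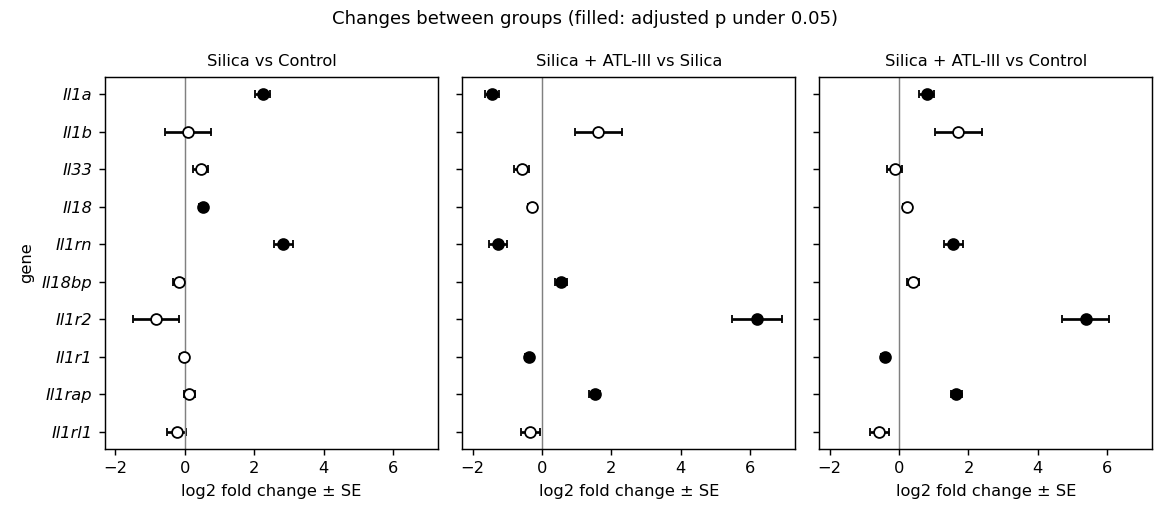
Log2 fold changes ± SE of the 10 genes in the 3 comparisons, from edgeR, with filled points for an adjusted p under 0.05. Il1r2 stands at 6.20 in Silica + ATL-III against Silica, and Il1a and Il1rn lie to the right of 0 in Silica against Control and to the left in Silica + ATL-III against Silica.

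The comparison of Silica + ATL-III with Control asks how far the treated, dust-exposed lungs stood from lungs without dust. Il1a, Il1rn, Il1r2 and Il1rap were called higher and Il1r1 lower, beside 9.14% and 6.71% of all tested genes (15.9% in either direction). The median of the 10 was 0.60, beside -0.01 over all tested genes. Il1rn was 8.00 ± 1.44 FPKM with ATL-III and 2.93 ± 0.896 in Control (log2 fold change 1.57 ± 0.27, edgeR adjusted p = 0.00232), with separate groups. Il1r2 differed by 5.37 ± 0.69 (edgeR adjusted p = 0.000343), and by 7.06 without Control replicate 2. Il1rap was 9.23 ± 1.45 FPKM against 3.21 ± 0.285 (1.65 ± 0.15, edgeR adjusted p = 4.43e-05). Il1a was 3.06 ± 0.612 FPKM against 1.92 ± 0.507, with overlapping values. Its call (0.80 ± 0.22, edgeR adjusted p = 0.0294) was lost in 8 of 19 alternatives, with adjusted p up to 0.111.

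Il1r1 was below Control in every library with ATL-III, at 6.65 ± 0.526 against 9.64 ± 0.439 FPKM (-0.42 ± 0.10, edgeR adjusted p = 0.0121), and lost its call without Control replicate 1 (0.0579). Il1b differed by 1.71 ± 0.68 (edgeR adjusted p = 0.113) with all libraries and by 3.52 without Control replicate 2 (0.000111). Il1rl1 was likewise below Control in every library, at 0.78, 0.70 and 0.49 against 0.79, 1.19 and 1.20 FPKM, by a margin of 0.01 FPKM at the nearest, and did not pass the test (-0.56 ± 0.28, edgeR adjusted p = 0.202). It passed the filter on low values with just 3 libraries, Control replicates 2 and 3 and Silica replicate 3 (1.17 FPKM). Il1rl1 thus entered mainly through Control, the group where it was highest. Il33 (-0.12 ± 0.22), Il18 (0.23 ± 0.12) and Il18bp (0.40 ± 0.17) overlapped with Control and did not pass, with edgeR adjusted p between 0.133 and 0.75. Groups did not overlap for 4 members in the higher and 2 in the lower direction, beside 12% and 30.6% of all tested genes.

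Family genes that lie next to each other differed in these comparisons. In GENCODE M21 (GRCm38), 6 receptor genes lie on the plus strand of chromosome 1 within 477.6 kb. These are Il1r2 (chr1:40074079-40125231), Il1r1 (chr1:40225080-40317257), Il1rl2 (chr1:40324610-40367562), Il1rl1 (chr1:40429570-40465415), Il18r1 (chr1:40465552-40500854) and Il18rap (chr1:40515362-40551705). With ATL-III, the genes at the ends of the cluster were called higher than in Silica, Il1r1 was called lower, and none of the 3 between Il1r1 and Il18rap was called. Il18rap, the accessory chain of the IL-18 receptor, read 2.28, 4.41 and 2.03 FPKM in Control, 2.08, 4.28 and 2.01 in Silica and 13.94, 13.34 and 10.62 with ATL-III. All 3 treated libraries were above the other 6, by 2.21 ± 0.31 over Silica on the log2 scale (edgeR adjusted p = 0.000721). Il18r1, the ligand-binding chain of the same receptor, read 31.39, 48.07 and 34.56 FPKM in Silica and 29.45, 24.45 and 30.74 with ATL-III (-0.40 ± 0.16, edgeR adjusted p = 0.0849). Il1rl2, the receptor for IL-36, was 3.13 ± 0.152 and 2.31 ± 0.587 FPKM (-0.42 ± 0.17, edgeR adjusted p = 0.097).

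**Figure D3:**
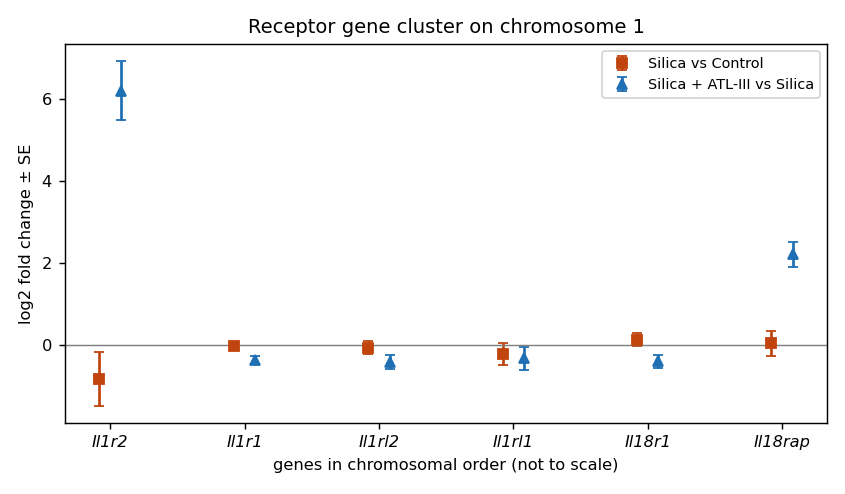
Log2 fold changes ± SE from edgeR for the 6 receptor genes in their order on chromosome 1, which is not drawn to scale. Silica against Control and Silica + ATL-III against Silica are shown. With ATL-III the end genes Il1r2 (6.20) and Il18rap (2.21) lie above 0 and the 4 between them below 0, relative to Silica.

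On chromosome 2, Il1a (chr2:129299610-129309972) and Il1b (chr2:129364570-129371139) lie on the minus strand with 54.6 kb between them. Relative to Silica, Il1a was called lower with ATL-III at -1.44 ± 0.20, while the fitted value of Il1b was 1.62 ± 0.68. Il1rn (chr2:24336853-24351494) lies on the plus strand far from that pair. Il1rap is on chromosome 16 (chr16:26581704-26730117), Il33 on chromosome 19 (chr19:29925114-29960718), Il18 on chromosome 9 (chr9:50554827-50581840) and Il18bp on chromosome 7 (chr7:102014885-102018690). Several members overlap annotated genes on the opposite strand, and without stated strand use the reads of such pairs cannot be told apart. Il18bp overlaps Numa1, a spindle protein gene with 914 to 1532 counts per library. Il1r2 overlaps the antisense gene Gm16894, which had 0, 14 and 2 counts in Control, 0 in each Silica library and 26, 63 and 29 with ATL-III, the same libraries in which Il1r2 was high.

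Inhibitor and decoy transcripts were also set against their ligand or receptor within each library, as log2 ratios of FPKM + 0.1. With 3 libraries against 3, the exact two-sided permutation test cannot go below p = 0.1, so no ratio could pass a threshold of 0.05. Over the 9 tests, each p of 0.1 became 0.18 after Benjamini-Hochberg adjustment. The ratio of Il1r2 to Il1r1 was -2.50, 0.63 and -1.94 in Control, -1.22, -1.13 and -1.85 in Silica and 5.29, 5.44 and 4.64 with ATL-III. Per gene length, the decoy transcript was thus below its signalling counterpart in 5 of the 6 libraries without ATL-III. In the 3 with it, the decoy was 24.9 to 43.5 times above. The size depends on exonic length, 1908 bases for Il1r2 and 6363 for Il1r1. With ATL-III, counts were 8687, 9622 and 4837 for Il1r2 and 733, 727 and 637 for Il1r1. In Control replicate 2 they were 470 and 1012. ATL-III libraries did not overlap with Silica (difference 6.52, exact permutation p = 0.1) or Control (6.40, exact permutation p = 0.1).

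The ratio of the antagonist Il1rn to the sum of Il1a and Il1b was -2.12, -4.46 and -2.42 in Control, -0.60, -2.31 and -0.49 in Silica and -3.37, -3.97 and -3.96 with ATL-III. Per gene length, the antagonist transcript was below the ligand sum in every library. This order depends on exonic length, which is 5535 bases for Il1rn, 1974 for Il1a and 1907 for Il1b. In counts, Il1rn was above the ligand sum in Silica replicate 1 (2460 against 304 for Il1a and 992 for Il1b). The same held in Silica replicate 3 (1955 against 290 and 664), while Il1rn was below the sum in the other libraries. Silica and Control overlapped (difference 1.87, exact permutation p = 0.2), and ATL-III libraries were below all Silica libraries (-2.63, exact permutation p = 0.1). The ratio of Il18bp to Il18 had means of -2.47 ± 0.30 in Control, -3.15 ± 0.16 in Silica and -2.32 ± 0.23 with ATL-III (SD, n = 3). Silica was below both other groups without overlap, by 0.68 against Control and 0.83 against ATL-III (exact permutation p = 0.1 for each).

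**Figure D4:**
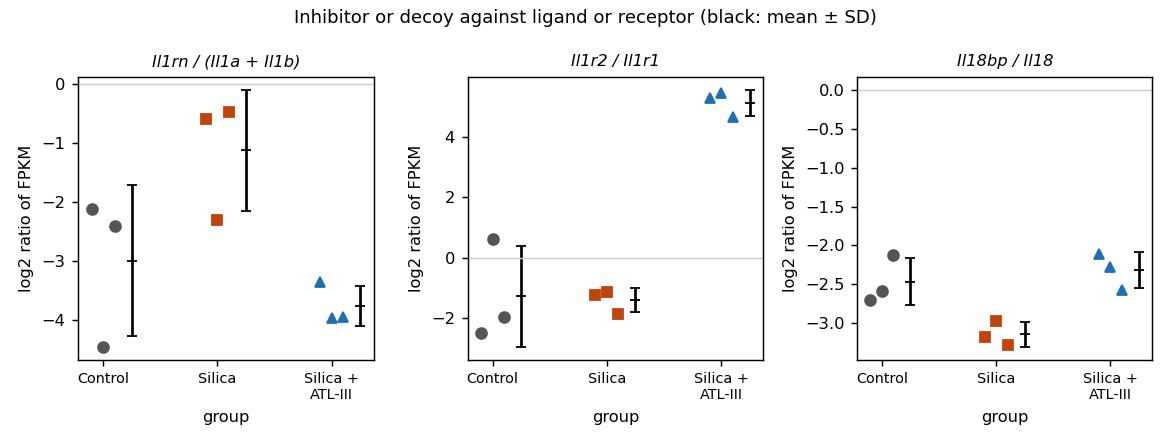
Log2 ratios of FPKM + 0.1 in each library by group, with black marks for the mean ± SD (n = 3), for Il1rn to Il1a plus Il1b, Il1r2 to Il1r1 and Il18bp to Il18. The Il1r2 to Il1r1 ratio is 4.64 to 5.44 with ATL-III and at most 0.63 elsewhere.

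Il1b and Il1r2 are both known to be strongly transcribed in neutrophils, and their levels were set beside the 19 neutrophil markers. Of the 17 markers tested, 4 were called higher and 0 lower in Silica than in Control, and 15 higher and 0 lower with ATL-III than in Silica. The shares called higher and lower over all tested genes were 9.11% and 7.81%, and 11.2% and 10%. Mmp8, neutrophil collagenase, went from 9.27 ± 5.38 to 597 ± 145 FPKM with ATL-III, and the granule gene Ngp from 3.06 ± 3.10 to 101 ± 19.2. Per 1000 FPKM of summed markers, Il1b was 16.3, 21.6 and 14.8 in Control, 13.1, 11.4 and 16.9 in Silica and 3.12, 3.84 and 2.26 with ATL-III. Relative to the marker sum, Il1b was thus lower with ATL-III, while in FPKM it was higher. Il1r2 was 2.52, 3.84 and 3.66 per 1000 in Control, 1.54, 0.882 and 1.96 in Silica and 9.01, 9.87 and 3.34 with ATL-III, where the last value overlapped with Control. S100a8 and S100a9 made up most of the marker sum. Without that pair, a choice made after the values were seen, Il1r2 was 12.0, 33.5 and 16.0 per 1000 in Control, 7.81, 5.81 and 4.51 in Silica and 55.9, 54.0 and 29.7 with ATL-III. Il1b without the pair was 38.9 to 188 in the 6 libraries without ATL-III and 19.3 to 21 with it. Monocyte markers moved too, with 6 of 8 called higher and 2 lower with ATL-III against Silica and sums of 110 to 174 FPKM in Silica and 211 to 441 with ATL-III. The part of neutrophil and monocyte transcripts in the levels of Il1b, Il1r2 and the other members was not tested.

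**Figure D5:**
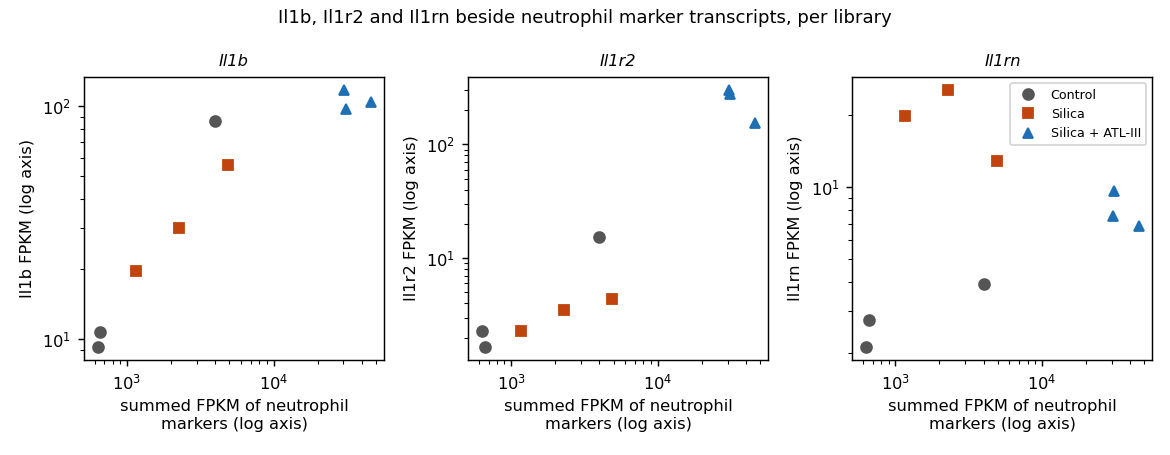
FPKM of Il1b, Il1r2 and Il1rn against the summed FPKM of 19 neutrophil markers, both on log axes, with 1 point per library. The Silica + ATL-III libraries lie at 30500 to 45900 on the horizontal axis, and Control replicate 2, at 4000, lies near Silica replicate 2, at 4910.

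The rest of the family was examined through 11 further genes, all in the table, of which 5 were tested. Il1f9, the gene of IL-36 gamma, an epithelial and myeloid ligand of Il1rl2, read 3.84, 10.13 and 2.88 FPKM in Control, 6.83, 8.34 and 3.27 in Silica and 32.48, 44.11 and 42.51 with ATL-III. The treated libraries were above all others (2.71 ± 0.40 over Silica, edgeR adjusted p = 0.000995). Sigirr, a brake on IL-1 receptor signalling, was lower in Silica (6.34 ± 0.535 FPKM) than in Control (8.94 ± 0.240), at -0.40 ± 0.10 (edgeR adjusted p = 0.0264), a call lost in 6 of 19 alternatives. With Il18rap and Il1f9 higher with ATL-III, 2 of these 5 genes were called against Silica, and 1, Sigirr, in Silica against Control. Over all tested genes, 21.2% and 16.9% were called in either direction in these 2 comparisons. Another 4 genes (Il1f5, Il1f6, Il1f10 and Il1rapl2) had 0 counts in all libraries.

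Signalling genes below the receptors were examined next. Of 26 adaptors, kinases, NF-kB subunits and inhibitors, all tested, 5 were called higher and 1 lower in Silica than in Control, 5 and 1 with ATL-III against Silica, and 10 and 0 with ATL-III against Control. In the same order, the shares of all tested genes called higher and lower were 9.11% and 7.81%, 11.2% and 10%, and 9.14% and 6.71%. The 26 genes had median log2 fold changes of 0.06, 0.12 and 0.29. Nfkbie and Tnfaip3, which restrain NF-kB, were higher in Silica by 1.38 ± 0.21 and 1.11 ± 0.19, and Ikbkb, a kinase that activates it, was lower (-0.34 ± 0.10, edgeR adjusted p = 0.0337), though not in 7 of 19 alternatives. Irak4, the kinase that MYD88 recruits, read 2.70, 2.69 and 2.35 FPKM in Silica and 5.21, 5.70 and 5.15 with ATL-III (1.07 ± 0.14, edgeR adjusted p = 0.000478). Myd88, the adaptor shared by these receptors, went from 12.7 ± 0.166 to 20.2 ± 2.83 FPKM (0.69 ± 0.13, edgeR adjusted p = 0.0032), and Nfkbiz, an NF-kB cofactor induced by IL-1, rose by 0.73 ± 0.13. Nfkbie was lower with ATL-III than in Silica (-0.70 ± 0.21, edgeR adjusted p = 0.0323), a call lost in 5 of 19 alternatives.

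Of 19 processing and inflammasome genes, 14 were tested. In Silica, 4 were called higher and 0 lower, with ATL-III 6 and 0 against Silica and 9 and 0 against Control, and the medians were 0.30, 0.24 and 0.60. The shares of all tested genes called higher and lower were 9.11% and 7.81%, 11.2% and 10%, and 9.14% and 6.71%. Casp1, the protease that matures IL-1 beta and IL-18, was 6.00 ± 0.251 FPKM in Control, 10.2 ± 0.925 in Silica and 13 ± 3.4 with ATL-III. It was higher in Silica (0.86 ± 0.18, edgeR adjusted p = 0.00961) and its difference between ATL-III and Silica did not pass (0.37 ± 0.17, edgeR adjusted p = 0.146). Casp4, the sensor caspase of the non-canonical inflammasome, was higher in Silica than Control by 0.94 ± 0.16 and higher again with ATL-III by 0.74 ± 0.15. Aim2, a DNA sensor, was higher in Silica by 0.97 ± 0.16. Nlrp3, the sensor that silica crystals are known to activate, read 0.68, 2.44 and 0.79 FPKM in Control, 0.79, 1.17 and 0.62 in Silica and 2.51, 3.65 and 3.34 with ATL-III. It was called higher with ATL-III than in Silica (1.9 ± 0.42, edgeR adjusted p = 0.00814) and, like Il1b and Il1r2, had its highest Control value in replicate 2. Outside Silica + ATL-III, Nlrp3 reached 1 FPKM only in Control replicate 2 and Silica replicate 2. It thus passed the filter on low values only through the ATL-III libraries, where it was high, so its call is not independent of the filter. Mefv, which encodes the inflammasome protein pyrin, rose from 1.42 ± 0.859 to 8.66 ± 0.601 FPKM (2.64 ± 0.36, edgeR adjusted p = 0.000579).

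Of 26 genes that IL-1 commonly induces, 19 were tested. In Silica, 14 were called higher and 1 lower, with ATL-III 5 and 7 against Silica and 10 and 1 against Control. These counts stand beside shares of 9.11% and 7.81%, 11.2% and 10%, and 9.14% and 6.71% over all tested genes. The medians were 1.74, -0.20 and 1.25, beside -0.01, 0.00 and -0.01 over all tested genes. Other signals also induce many of these genes, and Lcn2 is a neutrophil granule gene and stands in the neutrophil list as well. Ch25h, cholesterol 25-hydroxylase, followed Il1a, with 3.97 ± 0.240 FPKM in Control, 16.5 ± 1.51 in Silica and 8.69 ± 1.05 with ATL-III (2.16 ± 0.15 and -0.91 ± 0.14). Steap4, a metalloreductase, was instead higher at each step, at 4.01 ± 0.563, 12.4 ± 1.58 and 40.2 ± 7.23 FPKM. Nos2, the inducible nitric oxide synthase, was 0.27 ± 0.0854 FPKM in Silica and 3.44 ± 1.26 with ATL-III (3.68 ± 0.38, edgeR adjusted p = 0.000144). Its Silica level was below the 1 FPKM of the filter on low values, so it did not enter the test through Silica. Ptges, prostaglandin E synthase, fell with ATL-III (-1.12 ± 0.20, edgeR adjusted p = 0.00289), and Mmp3, a stromelysin, was lower in Silica than in Control (-1.0 ± 0.23, edgeR adjusted p = 0.0169), a call lost in 3 of 19 alternatives.

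Of 15 genes of the type 2 response downstream of IL-33, 10 were tested, with 4 higher and 0 lower in Silica, 1 and 1 with ATL-III against Silica, and 3 and 0 against Control. Over all tested genes the shares were 9.11% and 7.81%, 11.2% and 10%, and 9.14% and 6.71%. Retnla, a secreted product of alternatively activated macrophages and airway epithelium, was 259 ± 12.2 FPKM in Control, 2820 ± 1540 in Silica and 427 ± 95.5 with ATL-III, the last a fall of 2.72 ± 0.38 on the log2 scale from Silica (edgeR adjusted p = 0.000744). The T cell chemokine Ccl17 was higher in Silica by 0.87 ± 0.17 and Calca, the calcitonin gene-related peptide gene, rose with ATL-III by 1.55 ± 0.30. Il33 and Il1rl1 themselves passed the test in none of the 3 comparisons (smallest edgeR adjusted p = 0.0771 and 0.202). Il33 was called lower with ATL-III than in Silica by DESeq2 (adjusted p = 0.034) and in edgeR without the filter on low values (0.000269). Without that filter it was also called higher in Silica than in Control (0.00622). Its log2 fold changes there, -0.59 and 0.48, were close to those with the filter. The unfiltered fit also called Il1r2 lower in Silica than in Control (7.07e-05), where groups overlapped, so its calls were not taken as added support. Of 10 genes of the interferon gamma arm downstream of IL-18, 3 were tested and edgeR called 0 in each comparison. Over all tested genes, 16.9%, 21.2% and 15.9% were called in either direction. With only 3 genes, 0 calls cannot be told apart from those shares. Ifng itself, with 11 counts in Control, 17 in Silica and 8 with ATL-III, was not tested.

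The 3 genes nearest in pattern to each member were taken from Pearson's r of log2(FPKM + 0.5) over the 9 libraries, as a description without a test. The 9 libraries share their groups, so that any genes that differ between groups are correlated. For Il1r2 they were Gm38171 (r = 0.995), Rdh12 (0.994) and Irak4 (0.993), the last the kinase described above. Il1rap was nearest to Zfand4 (0.994), Pdzd3 (0.990) and Srgn (0.989), a granule proteoglycan gene of blood cells. Il1rn was nearest to Rgs1 (0.987), Ccl6 (0.986) and Ctsk (0.982), the last the gene of cathepsin K. Il1a was nearest to Gm13571 (0.976), Stra6l (0.975) and Stac2 (0.974), each at 0.35 FPKM or less in Control. These genes were also below 1 FPKM in every library with ATL-III. They could thus pass the filter on low values only by being at 1 FPKM or more in every Silica library. Il1b was nearest to Il15 (0.959), Gm8091 (0.953) and Trem3 (0.948), and shared with them a high value in Control replicate 2. Outside Silica + ATL-III, Pdzd3 was below 1 FPKM in every library and Gm38171 reached 1 FPKM only in Control replicate 2 (1.83). Gm8091 reached it there only in Control replicate 2 (1.13) and Silica replicate 2 (1.41). Pdzd3, Gm38171 and Gm8091 could thus pass the filter only through the ATL-III libraries.

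For the members with smaller changes, Il33 was nearest to Gp2 (r = 0.960), Banf1 (0.952) and Tmem30b (0.946), and Il18 to Arhgap19 (0.961), Slc26a4 (0.951) and Gm13092 (0.947). Il18bp was nearest to Ninl (0.977), Acsm3 (0.958) and H1f4 (0.952). Acsm3 and H1f4 reached 1 FPKM only in Control replicate 3 and ATL-III replicates 1 and 2, so they also needed ATL-III libraries to pass the filter. Il1r1 was nearest to Ggcx (0.976), Snai2 (0.975) and Setbp1 (0.975), and Il1rl1 to Nanos1 (0.980), Mtmr9 (0.956) and Foxj3 (0.950). No gene appeared near more than 1 member, and Il1a and Il1rn, which were high in the same group, had different nearest genes.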

How the data were processed

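Poly(A) RNA of mouse lung was sequenced in 9 libraries of 3 groups, grouped by their titles. The deposited table held whole-number counts per gene, not normalized, and FPKM computed by the authors, per the file headers. FPKM recomputed from counts, exonic lengths and column totals matched the deposited FPKM within 0.006 for 100% of values. The submitters' processing notes name cutadapt 1.9.1, HISAT2 2.0.1, HTSeq 0.6.1 and mm10 but give no roles. Whether counting used strand is not given. Gene positions in the deposited table did not match GRCm38, so positions are those of GENCODE M21.

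All genes at 1 FPKM or more in 3 or more libraries entered 1 edgeR 4.0.16 quasi-likelihood fit on counts with TMM factors (R 4.3.3), without covariates, adjusted by Benjamini-Hochberg over 15459 genes, with calls under 0.05. The SE is the log2 fold change over the square root of F. FPKM carry no TMM scaling, so their ratios can differ from fitted folds. Ratios within libraries were tested by exact permutation. The scripts were tested on simulated counts.

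The members and lists were chosen with earlier results of these data known. All members were named, with up to 2 genes per list, direction and comparison by smallest p among calls. Added to these were Casp1, Nlrp3, Myd88, Il18r1, Il18rap, Il36g (listed as Il1f9), Il1rl2 and Sigirr, and the 3 genes nearest in pattern to each member. Chil3 and the leading genes of the cell type lists met the rule but are mostly not described. Alternatives were DESeq2 1.42.0, library totals, upper quartile factors, no filter, a mean filter, limma 3.58.1 on log2(FPKM + 0.5) and + 0.1, the compared libraries alone, a replicate block and leaving out each library. Limma on log2(TPM + 0.5) was added after seeing the data. Besides neutrophil and macrophage markers, those of monocytes, fibroblasts, endothelium and alveolar type 2 cells are given beside members. The other cell type lists were used only to check the tissue. In the list of other family genes, older and current names of 4 genes (such as Il1f9 and Il36g) are counted once.

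Depth was even, and members had 184 to 23146 counts per group of 3 libraries. Chi-square per degree of freedom between replicates was 6.93 or more, so counts of replicates differed beyond sampling noise and none was a duplicate.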

Additional observations from a re-analysis of the deposited data

How the results depend on the processing

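Calls for Il1a and Il1rn in Silica against Control, for Il1a, Il1rn, Il1r2 and Il1rap in Silica + ATL-III against Silica, and for Il1rn, Il1r2 and Il1rap in Silica + ATL-III against Control held in all 19 alternatives. Members called lower numbered 1 without the filter in Silica against Control (Il1r2), where it was 0 with it, and 0 to 1 when 1 library was left out in Silica + ATL-III against Control, with 0 without Control replicate 1. Members called higher numbered 2 to 4, 2 to 4 and 3 to 4 when 1 library was left out. Scaling by library totals shifted the median of all genes by -0.11, -0.02 and -0.13 in the 3 comparisons, and TPM by -0.19, -0.11 and -0.30. The share of calls that were higher was 53.8%, 52.6% and 57.6% with TMM, 32.7%, 45.9% and 34.3% with library totals and 16.3%, 28.9% and 12.3% with TPM.

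In Silica against Control, values of genes that were not called changed sign. These were Il18rap (-0.063 with library totals, -0.053 and -0.061 with limma at 0.5 and 0.1, -0.14 with TPM, -0.39 to 0.45 leaving out 1 library), Il1b (-0.012 with library totals, -0.38 to 1.9), Il1rap (-0.067 with TPM, -0.013 to 0.28), Il18r1 (-0.075 with TPM, -0.055 to 0.24), Il1r2 (-1.28 to 0.86), Nlrp3 (-0.80 to 0.32), Il1f9 (-0.083 to 0.96), Il1rl2 (-0.17 to 0.0012) and Il1r1 (-0.079 to 0.011). The Il1r2 to Il1r1 ratio ran from -0.74 to 0.82 when 1 library was left out, with 0.82 without Control replicate 2. In Silica + ATL-III against Control, Il18 was -0.071 with TPM and Il33 ran from -0.27 to 0.092. The cause of these changes was not tested. Without the filter, Il33 (adjusted p = 0.00622) was also called in Silica against Control, Il33 (0.000269) and Il1b (3.25e-23) in Silica + ATL-III against Silica, and Il1b (6.45e-26) in Silica + ATL-III against Control, while the Il1r2 call above had an adjusted p of 7.07e-05. In that fit the log2 fold changes of these genes stayed close to the main ones while the adjusted p fell far, also where groups overlapped. Its calls are therefore not read as added support. In Silica + ATL-III against Silica, DESeq2 called Il33 (0.034) and limma on TPM called Il18 (0.0283).

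Same-numbered libraries of different groups correlated at -0.107 to 0.085 in their deviations from group means, and differently numbered ones at -0.099 to 0.116. The numbers were therefore not taken to pair them. Between Control and Silica alone, same-numbered pairs (0.066 to 0.085) stood above the others (-0.099 to 0.025). Same-numbered pairs with ATL-III were all negative. With the replicate block, calls went from 2615, 3279 and 2451 to 2120, 2822 and 2109. Il1b was then called in Silica + ATL-III against Silica (1.85, adjusted p = 0.024) and against Control (2.40, adjusted p = 0.0113), the Il18bp call was lost (adjusted p = 0.0664), and no other reported call changed.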
